A study of Saccharomyces cerevisiae with 24 samples.

Results

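The proteasome genes of budding yeast (Saccharomyces cerevisiae) were followed through the yeast metabolic cycle, in which a dense, glucose-limited culture passes together through rounds of high and low oxygen use. They were taken by standard gene name, as every PRE, PUP, RPN or RPT gene with a number, together with SCL1, whatever their values. This gave 34 of the 6562 genes in the deposited table, and all 34 were measured. They comprise 14 genes of the core particle, 10 of the base and 8 of the lid of the regulatory particle, the transcription factor gene RPN4 and the assembly chaperone gene RPN14. The cells were strain CEN.PK in minimal medium at every time point, and no other genotype or treatment is given in the labels. RNA-seq was done at 0, 20, 60, 110, 140, 180, 200, 210, 220, 230, 240 and 260 min, with 1 library per time point. No value therefore has a replicate, the labels do not say whether the libraries came from 1 culture, and errors are the scatter of libraries about a smooth curve in time.

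The proteasome degrades proteins that carry ubiquitin chains. Its core particle is a barrel of stacked rings. The outer alpha rings form the gate and the inner beta rings hold the peptidases. The regulatory particle caps the barrel. Its base carries a ring of ATPases, which unfold substrates, with scaffold subunits and ubiquitin receptors, and its lid holds the protease Rpn11, which removes ubiquitin. In yeast the transcription factor Rpn4 binds the promoters of most of these genes and is itself degraded by the proteasome, which closes a feedback loop.

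Levels are given in RPKM, read numbers scaled to gene length and library size, and differences on the scale log2(RPKM + 1). Depth came to about 4370000 to 5960000 reads per library, as estimated from the steps between low values. The search covered only a range of depths set in advance. The members had 211 to 2723 reads per library on average by this estimate, and at least 127 in any library. None of them overlaps another gene of the RefSeq annotation. The median log2 level of all genes tested was 0.36 below the mean library at 20 min and 0.18 above it at 210 and 240 min, so differences between libraries are also given after division by median-ratio size factors.

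The 32 subunit genes were expressed at nearly one level. Within a library the highest of them exceeded the lowest by 2.39-fold at 140 min to 3.55-fold at 20 min. Among all genes tested the 90th percentile exceeded the 10th by 22.3-fold to 50.4-fold, against 1.81-fold to 2.27-fold among the subunits. The median of the core genes was above that of the base genes in all 12 libraries, by 1.20-fold to 1.68-fold, and above that of the lid genes by 1.24-fold to 1.59-fold. The medians of lid and base lay closer to each other, with the lid at 0.779 to 1.18 times the base. RPN1, a scaffold subunit of the base, was the lowest subunit gene at 20 min with 129 RPKM. PUP3, of the beta ring, was the highest at that time with 459 RPKM. RPN14 was much lower than any subunit gene, between 17.9 RPKM at 220 and 40.3 at 260 min.

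The subunit genes shared one feature over the time course, a low level at 220 and 230 min. Of the 34 members, 30 had their lowest library at 230 min, against 15.7% of all genes tested, and the other 4 had it at 220 min, where 21.6% of all genes did. All 10 base genes and all 8 lid genes were lowest at 230 min, as were 12 of the 14 core genes. PRE5 of the alpha ring and PRE4 of the beta ring were lowest at 220 min, but only by a small margin, since PRE5 had 199 RPKM at 220 and 203 RPKM at 230 min and PRE4 had 206 and 210 RPKM. The highest library was not shared. It was 20 min for 10 members, against 6.04% of all genes, and 260 min for 9, against 15.8%. For 6 members it was 200 min, against 5.59% of all genes, and for 5 it was 110 min, against 4.13%. The remaining members had it at 60 min (3, against 3.59%) or at 0 min (1, against 10.9%).

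**Figure D1:**
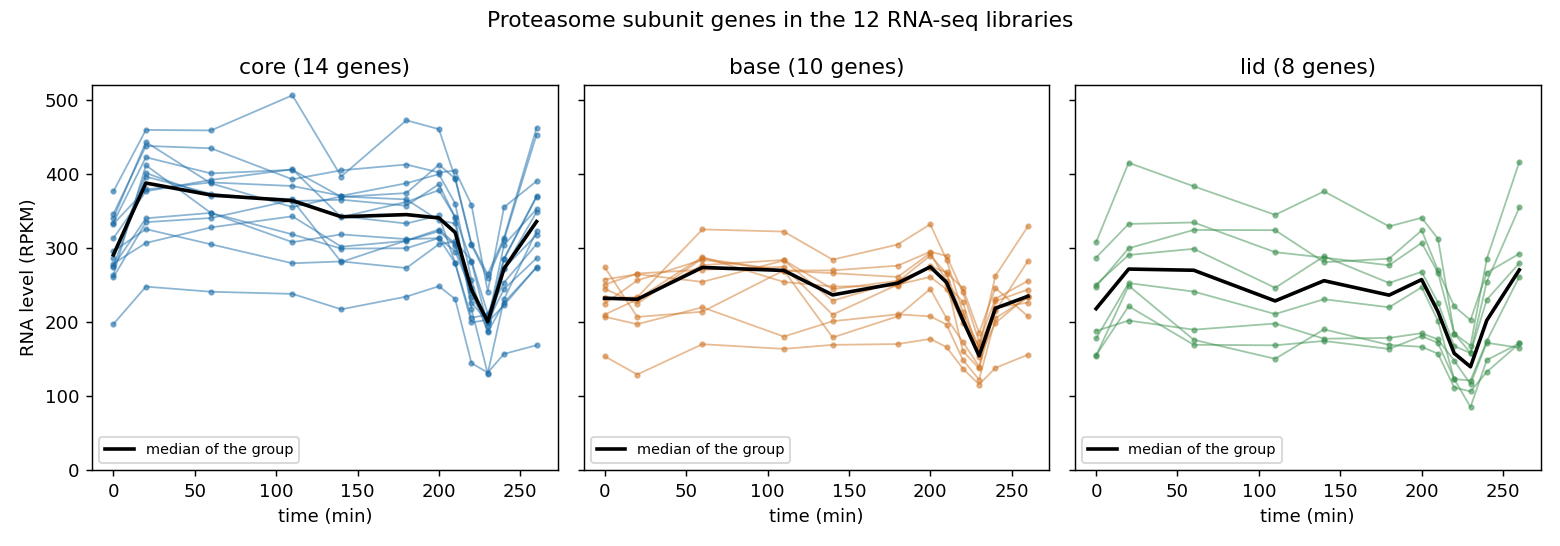
RNA level in RPKM (y axis) against time in minutes (x axis) for the 14 core, 10 base and 8 lid genes, 1 thin line per gene and 1 point per library, with the median of the group in black. The medians are lowest at 230 min, at 200.5 RPKM for the core, 154 RPKM for the base and 140 RPKM for the lid.

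No member passed the test for change over time. The test was an F-test of a smooth curve in minutes (limma, p-values adjusted over all 6493 genes tested), and 0 of 34 members had an adjusted p of 0.05 or less, against 20.7% of all genes tested. In this fit none had an unadjusted p of 0.05 or less either, and the lowest adjusted p among them was 0.198, for RPN8. The median fitted range of the members, the highest minus the lowest value of the curve, was 0.59 on the log2 scale, against 1.10 for all genes tested, and 33 of 34 members lay below the median of all genes. A fitted range of 2-fold or more was reached by 2 members, RPN4 and PRE3, and by 54.7% of all genes tested. Between their own highest and lowest libraries the members differed by a median of 1.93-fold, and all genes tested by 3.12-fold. The 0 depended on 1 library. Without 0 min, 7 members passed (PRE3, PRE4, PRE8, RPN3, RPN4, RPN8 and RPN12, limma adjusted p of 0.0241 to 0.0497), while the count over all genes went from 1343 to 3309, or 51% of those tested. With quantile normalization RPN14 passed alone (limma adjusted p = 0.0468), against 27.6% of all genes.

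**Figure D2:**
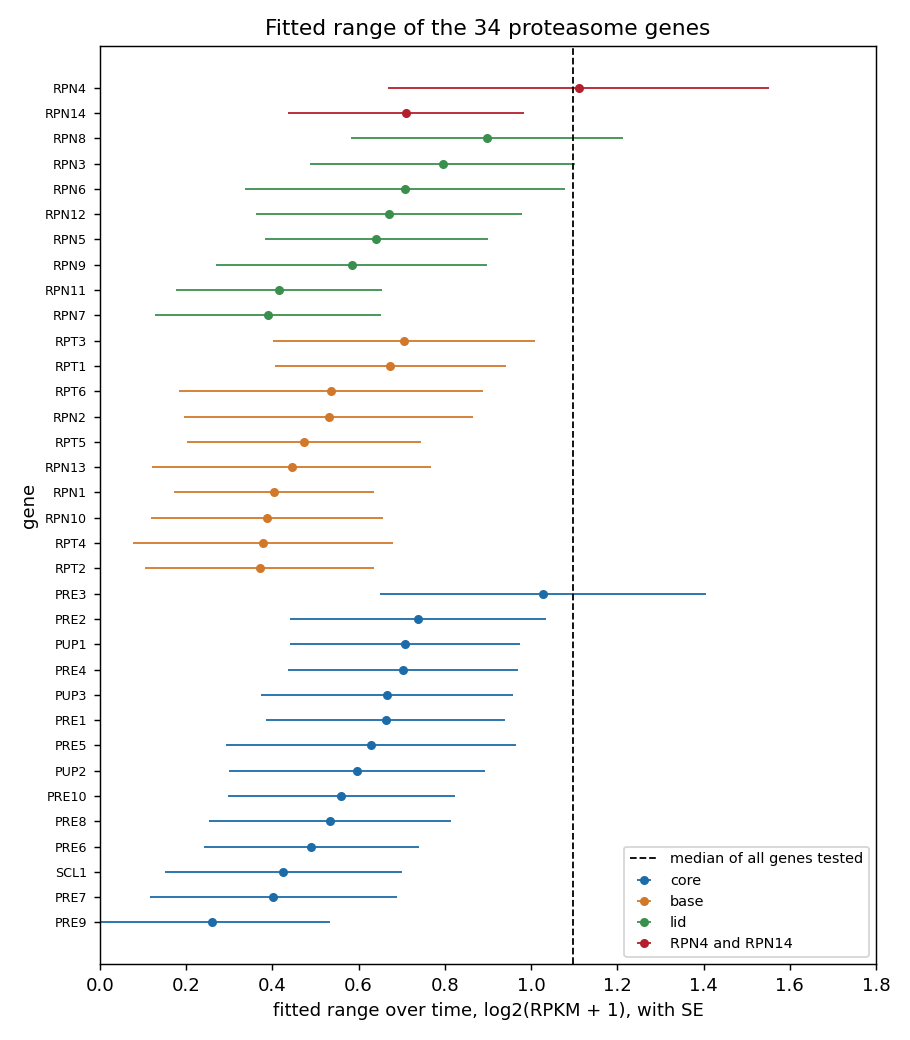
Fitted range over time on the log2(RPKM + 1) scale (x axis) for each of the 34 genes (y axis), with bars of 1 SE from limma, and the median of all genes tested as a dashed line at 1.10. RPN4 is the one gene to the right of the line, and PRE9 has the narrowest range, 0.26.

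Core, base and lid genes were lower in both steps to 230 min, in parts that moved with size factors. From 210 to 220 min all 34 members were lower, where 60.8% of all genes were lower, but the size was small, with a median difference of -0.39 and 7 of 34 lower by at least 1.5-fold, against 27% of all genes. After size factors 30 of 34 were lower, against 46.6% of all genes, and 2 of 34 by at least 1.5-fold, against 19%. Those 2 were RPN4 and RPN14. Of the 32 subunit genes alone, 5 were lower by at least 1.5-fold, and 0 after size factors. The median difference in this step was -0.38 for the core, -0.28 for the base and -0.48 for the lid. From 220 to 230 min, 30 members were lower still, where 45.3% of all genes were, and 32 after size factors, where 55.3% were. Here the medians were -0.25 for the core, -0.33 for the base and -0.13 for the lid. On these values the lid genes had most of their difference by 220 min, and the base genes had about equal parts in both steps. After size factors the medians from 210 to 220 min were -0.14 for the core, -0.05 for the base and -0.25 for the lid. From 220 to 230 min they were -0.39, -0.47 and -0.26. The lid genes then had about equal parts, and the base genes had most of their difference after 220 min. Over both steps together, from 210 to 230 min, all 34 members were lower, against 53.1% of all genes, and all 34 after size factors, against 47.5%. Those lower by at least 1.5-fold were 23 of 34, against 24.8% of all genes, and 15 of 34 after size factors, against 21.8%. The median difference over these 20 min was -0.65 for the core, -0.68 for the base and -0.67 for the lid, with members between -1.38 and -0.41. The differences between groups were not tested. All genes tested had a median of -0.05. From 230 to 240 min 33 members were higher, where 59.6% of all genes were, and 9 of 34 by at least 1.5-fold, against 22.7%. After size factors 32 were higher, against 47.6% of all genes, but 3 by at least 1.5-fold, below the share of all genes, 16.8%. The medians of this step were 0.33 for the core, 0.43 for the base and 0.55 for the lid. By 260 min all 34 members were above their 230 min level, where 45.9% of all genes were, and 23 were higher by at least 1.5-fold, against 30.6% of all genes. After size factors the counts were 34, against 49.8% of all genes, and 30, against 34.1%. The median difference from 230 to 260 min was 0.74 for the core, 0.69 for the base and 0.91 for the lid. Each of these differences compares 1 library with 1 library, and the steps were chosen after the values were seen.

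**Figure D3:**
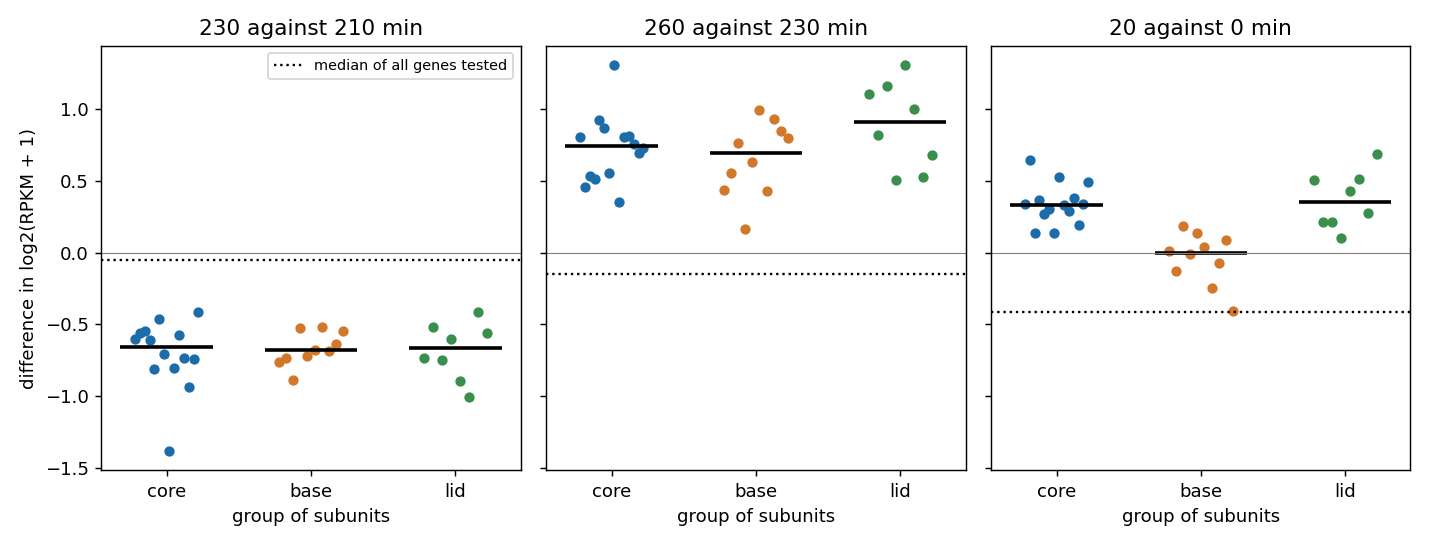
Difference in log2(RPKM + 1) between 2 libraries (y axis) for each core, base and lid gene (1 point per gene), with the median of the group as a black bar and the median of all genes tested as a dotted line. Core, base and lid overlap at 230 against 210 min, whereas at 20 against 0 min the 10 base genes are centred on 0 and all core and lid genes lie above 0. After size factors all 10 base genes lie above 0 in the last panel as well.

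In the core particle the beta ring had the wider low point. The median of its 7 genes was 401 RPKM at 20 and 200.3 at 230 min, a ratio of 2.00, while that of the 7 alpha ring genes was 347 RPKM at 60 and 201 at 230 min, a ratio of 1.73. This difference between rings was not tested. PRE3, which encodes the peptidase that cuts after acidic residues, was the most variable subunit gene (YJL001W, build R64, chromosome X, 435163 to 435926). It stood at 275, 396, 373, 363, 365, 357, 386, 341, 217.5, 130, 231 and 323 RPKM in the 12 libraries in time order. It was level from 20 to 210 min, low from 220 to 240 min and lowest at 230 min. Its fitted range was 1.03 ± 0.38 (SE), and it did not pass (limma adjusted p = 0.279). The other peptidase genes were lower at 230 than at 210 min as well. PUP1, of the trypsin-like site, had 231 RPKM at 210 and 132 RPKM at 230 min, and PRE2, of the chymotrypsin-like site, had 360 and 187.5 RPKM. PRE9, an alpha subunit and the one core subunit that yeast can live without, had the narrowest fitted range of all members, 0.26 ± 0.27 (limma adjusted p = 0.920), and lay between 211 RPKM at 230 and 325 at 20 min. The other alpha ring genes, SCL1, PRE5, PRE6, PRE8, PRE10 and PUP2, had fitted ranges of 0.43 to 0.63 (limma adjusted p of 0.396 to 0.706), and SCL1 was highest at 260 min with 453 RPKM. The beta ring genes without a peptidase site, PRE1, PRE4, PRE7 and PUP3, had 0.40 to 0.70 (limma adjusted p of 0.261 to 0.777), and PUP3 reached the highest level of any subunit gene, 506 RPKM at 110 min.

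At 20 min the base genes were low beside the core and lid genes, a difference between groups that was not tested. From 0 to 20 min all 14 core genes and all 8 lid genes were higher, with median differences of 0.33 and 0.35, while 5 of the 10 base genes were higher and 5 lower, with a median of 0.00. Of all genes tested 24.9% were higher in this step, and their median was -0.41. After size factors the 20 min level exceeded that of 0 min for each of the 34 members and for 48.5% of all genes, with medians of 0.75 for the core, 0.76 for the lid and 0.41 for the base. The ratio of the core median to the base median, which a size factor cannot move, was 1.68 at 20 min and 1.20 to 1.45 in the other 11 libraries. Against the 60 min library, 9 of 10 base genes were lower at 20 min, as were 5 of 14 core genes and 3 of 8 lid genes. Among all genes tested, 30.4% were higher at 20 than at 60 min. After size factors 14 of 14 core genes, 8 of 8 lid genes and 5 of 10 base genes were higher at 20 min than at 60 min, where 47.5% of all genes were. RPT1, an ATPase of the base, stood at 232, 234, 325, 322, 284, 305, 332, 284, 213, 167, 219 and 226 RPKM in time order. Its 0 and 20 min libraries lay near those of 220 and 240 min, and its fitted range was 0.67 ± 0.27 (limma adjusted p = 0.331). RPT4, another ATPase, lay between 185 RPKM at 230 and 288 at 60 min, and RPN13, a ubiquitin receptor, between 140 RPKM at 230 and 274 at 0 min. These 2 genes followed the other subunits least closely, with Pearson correlations of 0.64 and 0.67 between their log2 levels and the mean profile of the other subunits over the 12 libraries, where PRE3 had 0.98. RPN10, another ubiquitin receptor gene of the base, had 0.92. The other ATPase genes, RPT2, RPT3, RPT5 and RPT6, had fitted ranges of 0.37 to 0.71 (limma adjusted p of 0.406 to 0.776), and the scaffold genes RPN1 and RPN2 had 0.40 and 0.53 (0.638 and 0.554). RPT6 was one of 3 base genes that were highest at 260 min, with 329 RPKM there and 165 at 230 min.

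The lid genes had the largest median difference between 230 and 260 min, though their members overlapped those of core and base. RPN8, the partner of Rpn11, stood at 308, 415, 383, 345, 376, 329, 341, 312.5, 184, 168, 285 and 416 RPKM in time order (YOR261C, chromosome XV, 815915 to 816931). The libraries of 20 and 260 min were the highest and those of 220 and 230 min the lowest, 2.47-fold apart at the extremes. Its fitted range was 0.90 ± 0.32 (limma adjusted p = 0.198). RPN12, a lid subunit, was the most uneven between 0 and 60 min, at 155 RPKM at 0 min, 249 RPKM at 20 and 176 at 60 min. RPN9 reached the lowest level of any subunit gene in any library, 85.2 RPKM at 230 min, from 172 RPKM at 210 min. RPN11, the deubiquitinating enzyme gene, lay between 203 RPKM at 230 and 324 at 60 min, with a fitted range of 0.42 ± 0.24 (limma adjusted p = 0.650). The fitted ranges of RPN3, RPN5, RPN6, RPN7, RPN9 and RPN12 were 0.39 to 0.80 (limma adjusted p of 0.286 to 0.560). RPN7 had the narrowest fitted range of the lid genes, 0.39, and lay between 116 RPKM at 230 and 202 at 20 min, although between their own extreme libraries RPN11 differed less. RPN6 reached 355 RPKM at 260 min from 158 at 230 min.

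RPN4 was lowest 1 library earlier than most subunit genes (YDL020C, chromosome IV, 415113 to 416708). It stood at 132, 228, 168, 114, 203, 195, 161.5, 162, 52.5, 106.5, 103.5 and 183 RPKM in time order. The library at 220 min was by far the lowest, at 0.324 times the 210 min level, and the library at 110 min was also below its neighbours. At 230 min RPN4 was 2.03 times its 220 min level, while 30 of 32 subunit genes were lower at 230 than at 220 min. This order rests on single libraries 10 min apart and was not tested. RPN14, whose product helps to assemble the base (YGL004C, chromosome VII, 490703 to 491956), followed the same order, with 37.0 RPKM at 210 min, 17.9 RPKM at 220 and 22.7 at 230 min. The level of RPN4 was 0.216 times the core median at 220 min and 0.313 to 0.594 times in the other libraries. The fitted range of RPN4 was the widest of the members, 1.11 ± 0.44, but its scatter about the curve was wide too, with a residual SD of 0.52 against a median of 0.24 for the members. It did not pass (limma adjusted p = 0.276) except without 0 min (range 1.48, limma adjusted p = 0.0443).

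**Figure D4:**
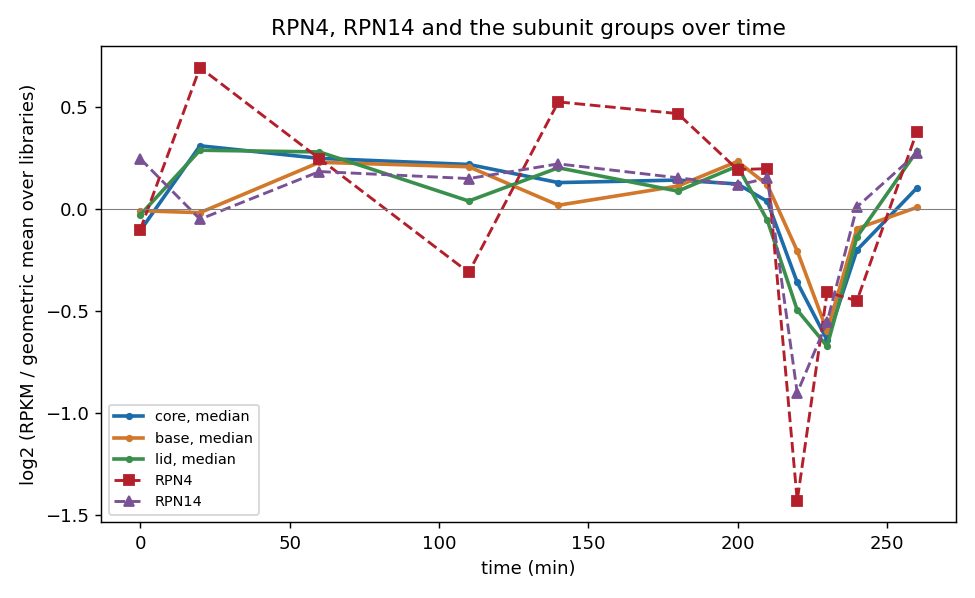
Level relative to the geometric mean over the 12 libraries, on the log2 scale (y axis), against time in minutes (x axis), for the medians of core, base and lid (solid lines) and for RPN4 and RPN14 (dashed lines). RPN4 and RPN14 are lowest at 220 min, with 52.5 and 17.9 RPKM, and the 3 medians are lowest at 230 min.

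The likeness of the subunit profiles was much lower without the libraries of 220 to 240 min. The median Pearson correlation of log2 levels over the 12 libraries was 0.82 for the 496 pairs of subunit genes, and 0.09 for all pairs of genes tested. Within groups it was 0.89 for the lid, 0.86 for the core and 0.74 for the base, and RPN4 had a median of 0.64 with the subunit genes. Without 220, 230 and 240 min the median over the subunit pairs was 0.32, with pairs from -0.69 to 0.95. The median for all pairs of genes was not computed over these 9 libraries. These correlations are descriptions over libraries that share their depth and their place in one time course. By the same measure, the genes outside the proteasome lists most like the core were YCP4, CPR1, MIN6, GVP36, AYR1, ACS1, DDR2, ATG34, INP54 and BMH1, with correlations of 0.968 to 0.987. All 10 were lowest at 230 min, which their selection by likeness to the core favours. Most of them had a much wider range than the core genes. ACS1, an acetyl-CoA synthetase, had 3244 RPKM at 20 and 20.7 at 230 min, and GVP36 had 315 RPKM at 260 and 147 at 230 min. CPR1, a cyclophilin, had 5720 RPKM at 20 and 657 at 230 min. The 5 most like RPN4 were CUR1, SLZ1, CTF19, MPO1 and ECL1, with correlations of 0.925 to 0.945. All 5 were lowest at 220 min, which their selection favours as well.

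Of 38 further genes of the pathway in 6 lists, 1 passed the test (limma), against 20.7% of all genes tested, while 28 had their lowest library at 220 or 230 min, where 37.3% of all genes tested had theirs. This count moved with the setting. In a curve of 5 degrees of freedom 14 of the 38 passed, against 39.9% of all genes, and these were NAS6, TMA17, POC4, BLM10, DDI1, CDC48, SHP1, MUB1, UBI4, RPL40A, RPL40B, RPS31, UBA1 and UBC5 (limma adjusted p of 0.00145 to 0.0359). On a time axis of library number 13 passed, where 2657 of the 6493 genes tested did. Without 1 library 0 to 14 passed, and the 14 came without 0 min, where 51% of all genes passed. The gene that passed in the main test was NAS6, whose product is a chaperone of base assembly (YGR232W, chromosome VII, 953960 to 954646). It stood at 126, 127, 106, 93.2, 75.3, 72.5, 75.3, 67.1, 40.3, 42.7, 79.4 and 171 RPKM in time order. It was lowest at 220 and 230 min and highest at 260 min, and its fitted range was 1.70 ± 0.37 (limma adjusted p = 0.0224). The call was lost with 3 degrees of freedom of the curve (limma adjusted p = 0.204), with 2 harmonics (0.111), and without the library of 210, 220, 230, 240 or 260 min (0.0514 to 0.162). Of the 9 further assembly chaperone genes it was the only one to pass, and 7 were lowest at 220 or 230 min. TMA17, also known as ADC17 and as a stress-induced chaperone of base assembly, had the widest fitted range of these lists, 3.03 ± 0.71 (limma adjusted p = 0.0582). It had 612 RPKM at 210 min, 121 RPKM at 220 min, 91.9 RPKM at 230 and 1316 at 260 min. UMP1, which acts in maturation of the core, had 167 RPKM at 220 and 384 at 20 min. POC4, an alpha ring chaperone, went against the subunits, with 68.7 RPKM at 230 and 22.2 at 260 min (fitted range 1.25 ± 0.34, limma adjusted p = 0.0706).

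Genes of proteins that bind the proteasome were low at the same time. All 5 genes of that list had their lowest library at 230 min, against 15.7% of all genes tested, and 0 of the 5 passed. Over all genes tested 20.7% passed, the share to set beside each list here. SEM1, the small lid subunit that the naming rule leaves out, had 450 RPKM at 210 and 209 RPKM at 230 min. BLM10, an alternative cap of the core, had the widest fitted range of the list, 1.45 ± 0.39 (limma adjusted p = 0.113), with 66.4 RPKM at 180 and 19.2 at 230 min. CDC48, the ATPase that extracts ubiquitylated proteins, had the widest fitted range of the 4 genes of its list, 0.97 ± 0.36 (limma adjusted p = 0.263). Its level was 132 RPKM at 230 and 430 RPKM at 260 min. All 4 were lowest at 220 or 230 min, against 37.3% of all genes tested, and 0 passed. Of the 3 shuttle receptor genes 0 passed, and they differed: DDI1 (widest range of the list, 1.20 ± 0.40, limma adjusted p = 0.199) had 116 RPKM at 210 and 49.0 RPKM at 230 min, whereas RAD23 was highest at 220 min with 293 RPKM. Of the 7 regulators of RPN4 and of its turnover 0 passed, and 5 were lowest at 220 or 230 min, against 37.3% of all genes tested. RAD6, the ubiquitin-conjugating enzyme, had the widest fitted range of them, 1.00 ± 0.29 (limma adjusted p = 0.141). It went the other way, highest at 220 min with 123 RPKM and lowest at 260 min with 53.9 RPKM. MUB1, which takes part in the degradation of Rpn4, had a fitted range of 0.95 ± 0.24 (limma adjusted p = 0.0566) and also passed with size factors (0.045). HSF1, the heat shock factor, had 34.0 RPKM at 220 and 60.3 RPKM at 200 min.

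Some genes for ubiquitin and for its conjugation had opposite courses, and 0 of the 10 passed in the main test, against 20.7% of all genes tested. UBR1, UFD4 and DOA4 had the narrowest fitted ranges of the list, 0.30, 0.67 and 0.92 (limma adjusted p of 0.226 to 0.854). UBI4, which encodes a chain of ubiquitin units and is known for induction by stress, had 940 RPKM at 210, 335 RPKM at 230 and 1349 RPKM at 260 min (fitted range 1.35 ± 0.41, limma adjusted p = 0.142). The genes that encode ubiquitin fused to a ribosomal protein had their highest library at 230 min. RPS31 had 7208 RPKM at 230 and 634 at 20 min, RPL40A had 1293 and 285 RPKM, and RPL40B had 1060 and 135 RPKM. The sum of these 3 fusion genes was 0.813 times UBI4 at 20 min and 28.5 times UBI4 at 230 min. RPL40A and RPL40B are near-identical copies, between which reads may have been split. RPL40B had the widest fitted range of the list, 2.16 ± 0.72 (limma adjusted p = 0.0983). With 5 degrees of freedom 6 of the 10 genes of this list passed (limma), against the 39.9% of all genes. The paralogous conjugating enzyme genes UBC4 and UBC5 also parted at 230 min. UBC4 had 426 RPKM at 230 and 261 at 140 min, and UBC5 had 90.3 and 375 RPKM. At 20 min both were high, with 404 RPKM for UBC4 and 349 RPKM for UBC5. Their ratio, UBC4 to UBC5, was 4.72 at 230 min and 0.582 at 110 min. This difference was not tested.

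**Figure D5:**
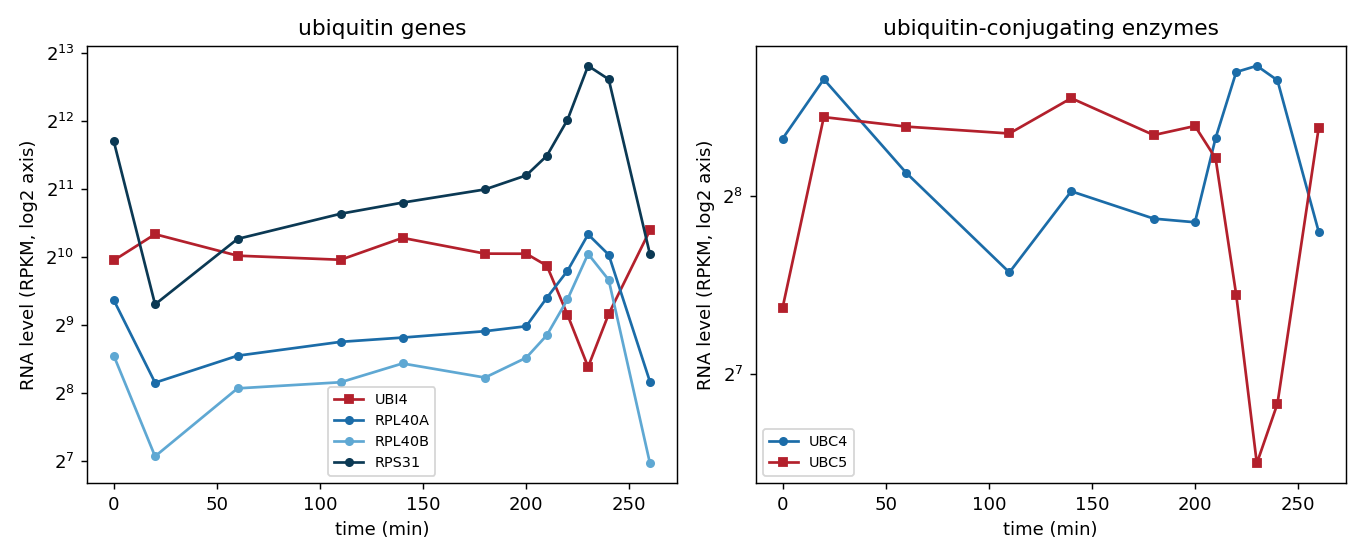
RNA level in RPKM on a log2 axis (y axis) against time in minutes (x axis), for the 4 ubiquitin genes (left) and for UBC4 and UBC5 (right), 1 point per library. UBI4 and UBC5 have their lowest library at 230 min, at 335 and 90.3 RPKM, where RPS31, RPL40A, RPL40B and UBC4 have their highest.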

How the data were processed

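RNA-seq libraries of 12 time points were used. The 12 MNase-seq samples were not used here. Hot phenol extraction and the NEBNext Ultra RNA kit, which does not mark strand, are given per the labels' protocols. The submitters' processing notes name Bowtie2 and build R64. The tool that counted reads and its annotation were not given in the sources used here. In the first table the authors deposited a signal per gene, headed RKPM. Multiplied by gene length it gave library totals of 41456100 to 44803200, more than RPKM values can reach, and 328 of 1649 low values fell, to the nearest base, on 50, 100, 150 or 200 bases at the depth that maximised such matches. It was therefore divided by 50 bases, an inference from the values alone. The second deposited table holds each value as a fraction of the gene's highest library, equal to within 2.22e-16, and was not used further. Empty lines in the first table numbered 4. RefSeq names and coordinates (R64) were matched by systematic name for 5891 of 6562 genes.

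The 6493 genes averaging 1 RPKM or more were fitted on log2(RPKM + 1) with a natural cubic spline in minutes of 4 degrees of freedom, leaving 7 residual degrees (limma 3.58.1, R 4.3.3, trend in the mean). P-values are Benjamini-Hochberg adjusted over all these genes. A difference on this scale understates that of low genes. The SE of a fitted range is that of the difference between the highest and lowest points of the curve. It does not allow for the picking of these points from the same curve, so range and SE are no test against a flat course. The fit was checked on simulated smooth courses that were wider than those of the members and had less scatter than most. The check does not show that courses like those of the members would be found. Every member was named. Of the other lists, genes past the threshold and the widest fitted range were named, and further genes of those lists after their values were seen. Members and lists were chosen with earlier results of these data known. The likeness ranking took named genes averaging 10 RPKM or more.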

Additional observations from a re-analysis of the deposited data

How the results depend on the processing

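The number of members passing was 0 in the main fit and under 3 and 5 degrees of freedom, 2 harmonics, time point number, other pseudocounts, other filters, size factors and the values as deposited. It was 1 with quantile normalization. The lowest limma adjusted p among the members was 0.198 in the main fit, 0.055 with 5 degrees of freedom and 0.051 with time point number. The last 2 lay close to the threshold of 0.05. Leaving out 1 library gave 0 to 7 members, 0 to 3 core genes, 0 to 3 lid genes and a fitted range of 0.62 to 1.48 for RPN4, and the number was above 0 only without 0 min. The count over all genes was 145 with 3 and 2589 with 5 degrees of freedom, 2657 with time point number, and 277 to 3309 without 1 library. Leaving out a library also moves the knots of the curve. The range of the group median on the log2 scale was 0.95 for the core, 0.83 for the base and 0.96 for the lid. With size factors it was 1.27 for the core and 1.28 for the lid, and without 1 library it was 0.669 to 0.951, 0.439 to 0.83 and 0.783 to 0.96, the lowest for each without 230 min. In settings chosen after seeing the data, 26 to 34 members were lowest at 220 or 230 min without 20, 220 or 230 min. The share of all genes was not computed for these settings. In all 12 libraries it was 37.3%. Genes higher at 20 than at 60 min numbered 14 for the core, 5 for the base and 8 for the lid with size factors, and 3 for the base with quantile normalization. The cause of these shifts was not tested. A promoter motif search was not run. No paired analysis was possible because each time point has 1 RNA-seq library. Depth is an estimate, so no counting intervals are given.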
